A study of Mus musculus with 12 samples.

Results

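Megakaryocytes, the cells that shed platelets, and red blood cells arise from a shared progenitor, and erythroid progenitor lines still carry RNA of several megakaryocyte genes. By name, 8 such genes were chosen: Itga2b, Itgb3, Gp1bb, Gp9, Pf4, Fli1, Runx1 and Meis1, and 7 of the 8 were followed through the table of 17210 genes. The RNA of Gp1bb was not analysed here, and only its promoter window was searched. All 7 passed the filter on low counts, which kept 11177 genes, so that each could be tested in every comparison.

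The RNA came from G1E-ER4 cells, a mouse erythroid progenitor line derived from embryonic stem cells without their own Gata1. The line carries GATA1 joined to an estrogen receptor domain, through which β-estradiol (EST) activates it, and all 4 groups share this background (strain C57BL/6J per the labels). Cells were transduced for 24 h with a retrovirus, either empty or encoding an active form of SREBP2, the transcription factor of cholesterol synthesis genes, and were then given EST for 6 h or left without it. The groups are called Vector, Vector+EST, SREBP2 and SREBP2+EST, with 3 libraries each and 12 libraries in all. For EST the sample protocol gives a dose of 500 nM, but the series design gives 200 nM. All libraries come from 1 cell line. The study speaks of independent experiments for its plotted means, but the labels do not tie the libraries to separate cultures, so p-values measure only the spread between these libraries, which may be technical.

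The proteins encoded by these genes fall into 3 kinds. Itga2b and Itgb3 encode the 2 chains of the platelet fibrinogen receptor, and Gp9 and Gp1bb encode chains of the GPIb-IX-V complex, which binds von Willebrand factor. Pf4 encodes platelet factor 4, a chemokine stored in platelet granules. Fli1, an ETS family factor, and Runx1, the DNA-binding partner of CBFB, act together at many megakaryocyte genes, and Meis1 is a homeodomain factor of stem cells and the megakaryocyte lineage. In normal differentiation GATA1 takes part in both lineages, while KLF1 favours the erythroid and FLI1 the megakaryocyte side.

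Totals ran from 18700959 to 19152281 estimated counts per library. In the whole profile, SREBP2 library 1 lay nearest to SREBP2+EST library 2, at a median absolute difference of 0.0830 in log2 CPM (counts scaled to a common library size) against 0.120 to 0.138 to its own group. Likewise, SREBP2+EST library 1 lay nearest to SREBP2 library 3, at 0.0643 against 0.106 to its own group. Results on EST in SREBP2 cells and the interaction are therefore given with and without both libraries numbered 1. The labels call the cells embryonic stem cells, yet the 4 embryonic stem cell markers in the table summed to at most 0.650 CPM, whereas 10 erythroid markers summed to 8219 to 8605 CPM in Vector and 6278 to 7417 CPM in the other groups. The 5 fibroblast markers summed to 19.1 to 19.9 CPM in Vector, nearly all of it Col1a2, and to 4.03 to 5.42 CPM in SREBP2 and in Vector+EST libraries 1 and 3. In Vector+EST library 5 they summed to 34.5 CPM and in SREBP2+EST to 18.1 to 33.8 CPM, and these 4 libraries also held Col1a1, at 6.50 to 13.8 CPM against at most 0.0542 CPM in the other 8. Summed macrophage markers did not exceed 5.05 CPM.

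In untreated Vector cells, Pf4 and Runx1 had the highest levels per length. Scaled by exon length, Pf4 stood at 13.1 ± 0.797 CPM per kb (SD, n = 3) and Runx1 at 11.9 ± 0.485 CPM per kb, and these means lie within their joint spread. Itga2b followed with 5.15 ± 0.302, then Fli1 with 4.04 ± 0.0919, Gp9 with 3.25 ± 0.723 and Itgb3 with 2.81 ± 0.0608 CPM per kb. The SDs of Gp9 leave its place between Fli1 and Itgb3 unresolved. Meis1 was lowest at 0.382 ± 0.0299 CPM per kb. In SREBP2 cells the order was Pf4 at 66.2 ± 10.7, Runx1 at 16.3 ± 1.45, Fli1 at 8.29 ± 0.615, Itgb3 at 4.27 ± 0.467, Itga2b at 1.33 ± 0.118, Meis1 at 0.998 ± 0.0163 and Gp9 at 0.876 ± 0.163 CPM per kb. Itga2b thus held the third place in Vector cells and the fifth in SREBP2 cells, while Itgb3 moved up.

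**Figure D1:**
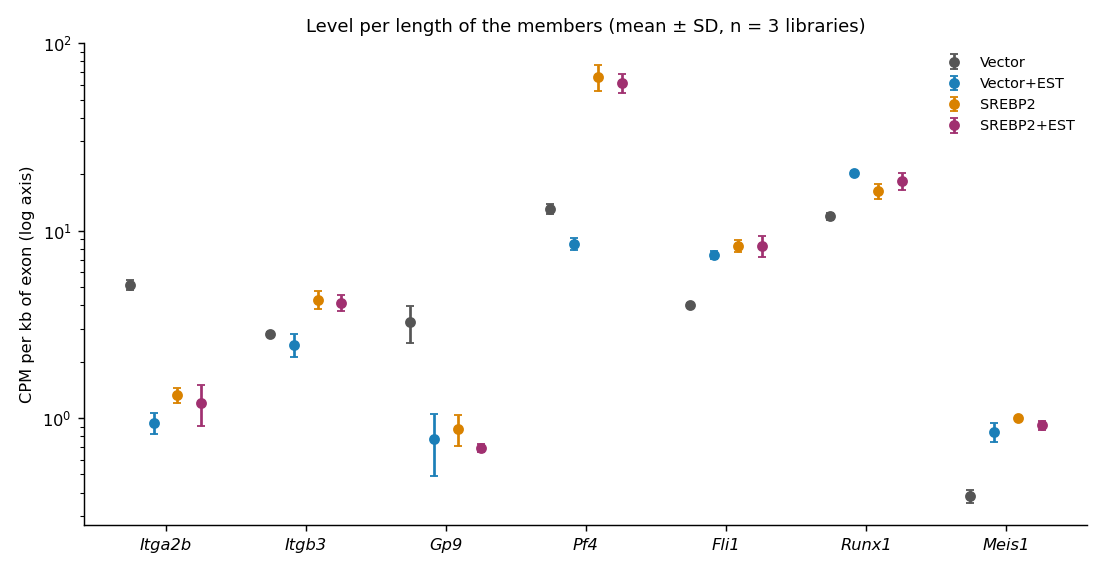
Level per length of the 7 genes in each group, as CPM per kb of exon on a log axis, with the mean and SD of 3 libraries. Pf4 stands highest in Vector, SREBP2 and SREBP2+EST, Runx1 in Vector+EST, and Meis1 or Gp9 lowest.

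The first comparisons ask what GATA1 activation by EST does in Vector cells and what SREBP2 does without EST. With EST in Vector cells, 3 of the 7 genes rose (Fli1, Runx1 and Meis1), 3 fell (Itga2b, Gp9 and Pf4) and Itgb3 did not pass the test. Over all genes tested, 70.6% passed, 35.2% higher and 35.5% lower, so that 6 of 7 is close to the share of all genes. With SREBP2 and no EST, 5 of the 7 rose and 2 fell, while 71.5% of all genes passed, 37.7% higher and 33.8% lower. In each comparison the libraries of all 7 genes did not overlap between the groups, beside 75.7% and 74.8% of all genes. Erythroid markers moved in the same comparisons, 3 of 10 higher and 6 lower with EST, and 3 higher and 5 lower with SREBP2 alone. Alas2, the first enzyme of heme synthesis in red cells, rose from 52.1 ± 0.168 CPM in Vector to 138 ± 6.85 CPM with EST and 176 ± 12.02 CPM with SREBP2. Slc4a1, the red cell anion exchanger, fell from 67.6 ± 1.82 CPM in Vector to 2.86 ± 0.355 CPM with EST and 4.04 ± 0.964 CPM with SREBP2. Hba-a1, an α-globin gene with a near-identical copy and so uncertain on its own, ran from 3018 to 3223 CPM in Vector, 1712 to 1764 CPM with EST and 1525 to 1713 CPM with SREBP2. These 3 genes were named after their values were seen. Of the 3 mast cell markers tested, all fell with EST and 2 fell with SREBP2 alone. Of the 5 fibroblast markers, 4 rose and 1 fell with EST, and 1 fell with SREBP2 alone. The 4 that rose overlapped between the groups, and their rise comes from Vector+EST library 5. There the 5 markers summed to 34.5 CPM, against 4.74 and 4.71 CPM in Vector+EST libraries 1 and 3. The part of these changes in the levels of the 7 genes was not tested. Both comparisons use the same Vector libraries as controls, and their values are therefore only set side by side. The median log2 fold change of the 7 genes was -0.19 with EST, beside 0.01 over all genes, and 0.60 with SREBP2, beside 0.03 over all genes.

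**Figure D2:**
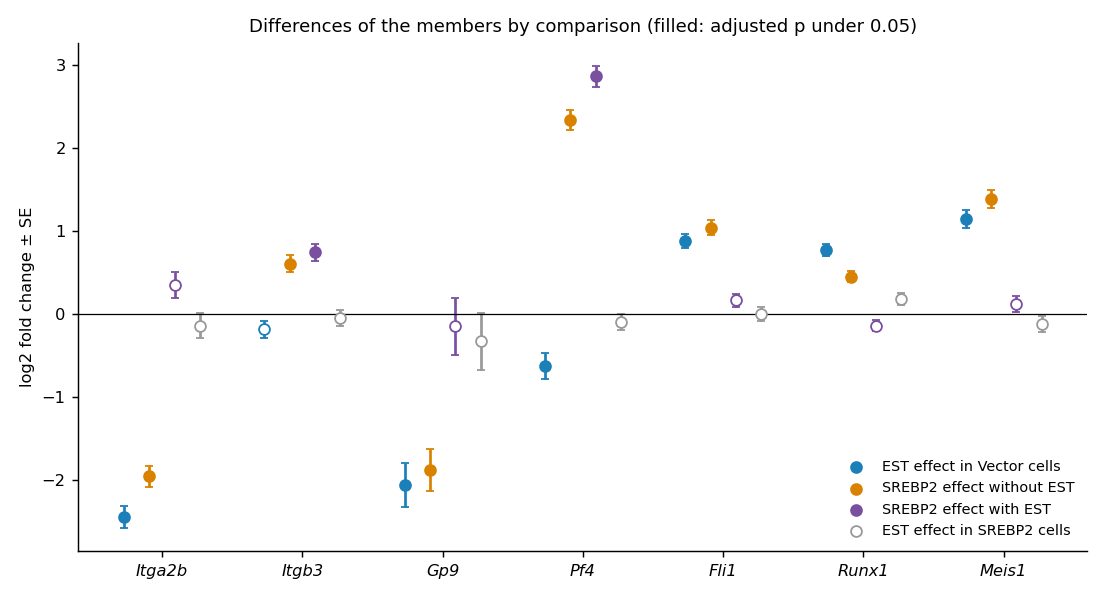
Log2 fold change and SE of the 7 genes in 4 comparisons, where filled points passed an adjusted p of 0.05 and open points did not. Pf4 lies below 0 for EST in Vector cells and above 2 for SREBP2, and every point for EST in SREBP2 cells is open and near 0.

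Itga2b, on the minus strand of chr11:102453297-102469883 (GRCm38.p6), fell most among the 7 genes in Vector cells given EST. It measured 29.4, 28.6 and 26.3 CPM in Vector libraries 1, 4 and 5, and 5.31, 4.39 and 5.73 CPM in Vector+EST libraries 1, 3 and 5. SREBP2 libraries 1, 3 and 5 held 6.57, 7.86 and 7.27 CPM, and SREBP2+EST libraries 1, 2 and 5 held 6.88, 7.97 and 4.79 CPM. All 3 Vector libraries exceed the other 9. The log2 fold change with EST was -2.45 ± 0.13 (SE), with an edgeR adjusted p of 9.26e-11. With SREBP2 alone it was -1.96 ± 0.13 (edgeR adjusted p 6.98e-10).

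Itgb3, on the plus strand of chr11:104608000-104670476, encodes the other chain of the same receptor but did not move with Itga2b. Its libraries, in the same order, held 16.8, 16.8 and 16.2 CPM in Vector, 15.6, 15.9 and 12.1 CPM in the Vector+EST group, 22.04, 26.7 and 26.9 CPM in SREBP2, and 26.7, 24.2 and 22.1 CPM in SREBP2+EST. All 6 libraries with SREBP2 lie above the 6 without it, whether or not EST was given. The difference with EST in Vector cells was -0.19 ± 0.11 on the log2 scale (edgeR adjusted p 0.130), and it ran from -0.26 to -0.09 when single libraries were left out, the smallest without Vector+EST library 5. SREBP2 raised Itgb3 by 0.60 ± 0.10 without EST (edgeR adjusted p 5.79e-05) and by 0.74 ± 0.10 with it (edgeR adjusted p 6.01e-05). Vector+EST library 5, the lowest, also held the most fibroblast marker RNA, 34.5 CPM, and the part of that RNA in the Itgb3 level was not tested. All 12 values of Itgb3 carry decimals, so some of its reads were shared out between transcripts or genes by the authors' estimate.

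**Figure D3:**
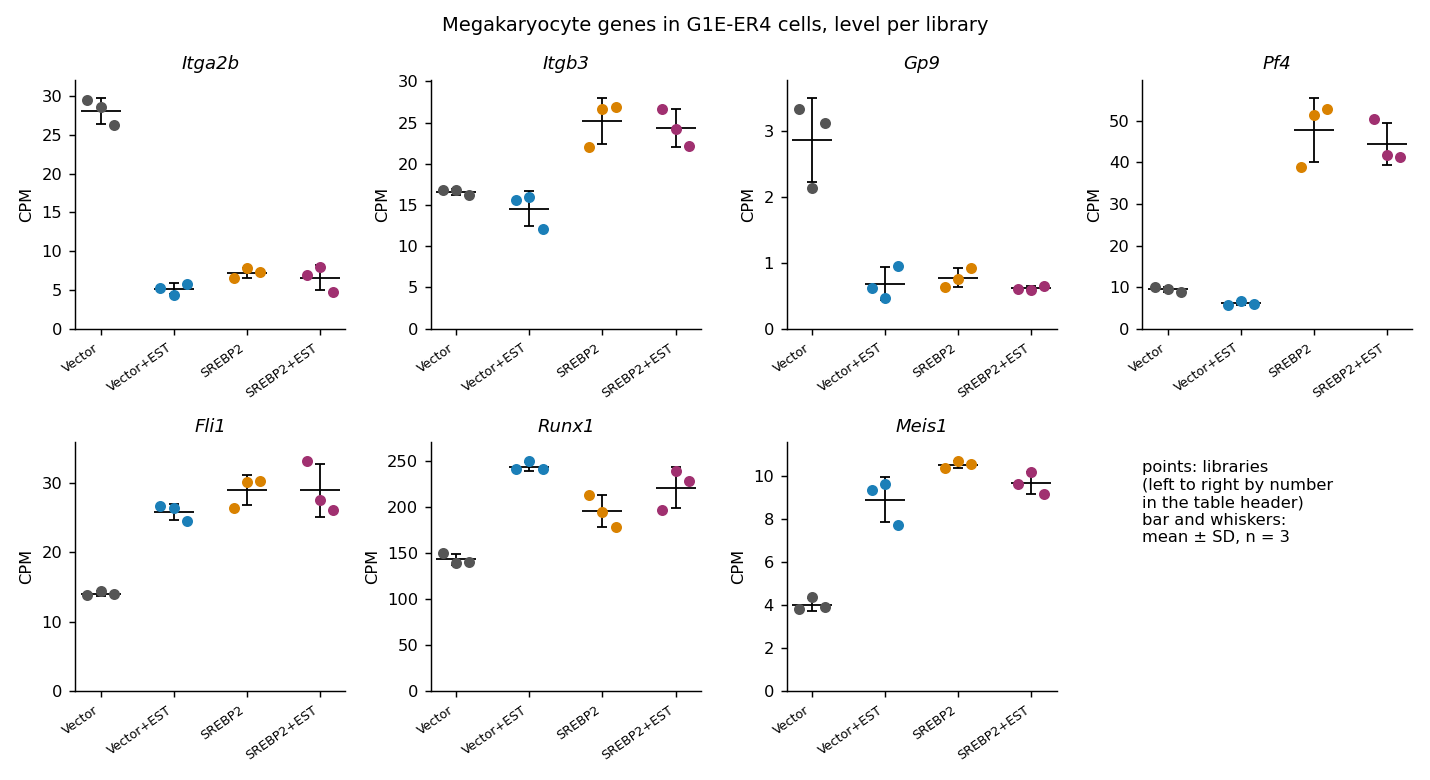
CPM of the 7 genes in each of the 12 libraries by group, each panel with its own axis from 0, with the mean and SD of 3 libraries as a bar. The Vector libraries lie above all others for Itga2b and Gp9 and below all others for Fli1, Runx1 and Meis1, while the 6 SREBP2-transduced libraries lie highest for Itgb3 and Pf4.

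Gp9, on the plus strand of chr6:87776131-87779786, was the rarest in CPM and fell in both comparisons. Its estimated counts were 65, 42 and 61 in Vector, 12, 9 and 18 in Vector+EST, 12, 14 and 17 in SREBP2, and 11, 11 and 12 in SREBP2+EST, each in the order of library numbers given above. The Vector libraries lie above all 9 others without overlap. In CPM the group means were 2.87 ± 0.637, 0.681 ± 0.248, 0.772 ± 0.144 and 0.612 ± 0.0301 (SD, n = 3). The log2 fold change was -2.06 ± 0.26 with EST (edgeR adjusted p 2.82e-06) and -1.88 ± 0.26 with SREBP2 alone (edgeR adjusted p 6.17e-06). At such counts a small difference among the 3 lower groups was not detectable.

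The chains that join GP9 in the GPIb-IX-V complex did not move as 1 unit. Gp1ba, the chain that binds von Willebrand factor, measured 20.01, 15.6 and 16.02 CPM in Vector, 32.4, 38.3 and 40.01 CPM in the Vector+EST group, 41.6, 46.3 and 42.6 CPM in SREBP2, and 54.01, 47.4 and 48.1 CPM in SREBP2+EST. It rose by 1.10 with EST (edgeR adjusted p 4.38e-08) and by 1.34 with SREBP2 alone (edgeR adjusted p 3.24e-09), both on the log2 scale, and by a further 0.43 with SREBP2 over Vector+EST (edgeR adjusted p 0.00188). Gp5, another chain of the complex, went the other way, from 24.3, 22.4 and 20.2 CPM in Vector to 6.29, 6.07 and 5.25 CPM with EST and 7.20, 9.75 and 9.87 CPM in SREBP2. Its log2 fold changes were -1.92 with EST (edgeR adjusted p 1.95e-09) and -1.32 with SREBP2 alone (edgeR adjusted p 8.42e-08). In SREBP2+EST it held 8.88, 6.41 and 6.68 CPM. Gp1ba therefore rose where Gp5 and Gp9 fell. Among the other integrin chains, Itgav, which can also pair with the Itgb3 chain, rose from 17.7 ± 0.961 CPM in Vector to 25.2 ± 1.80 CPM with EST and 26.3 ± 1.85 CPM with SREBP2. Itgb1, a widely used chain, was far more abundant, at 450 ± 10.9 CPM in Vector, and its differences of 0.13 and 0.12 on the log2 scale passed the test (edgeR adjusted p 0.0253 and 0.0371) but lost it under most other settings. Gp6 and Itga6 fell under the filter, at group means of at most 0.394 and 0.273 CPM.

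**Figure D4:**
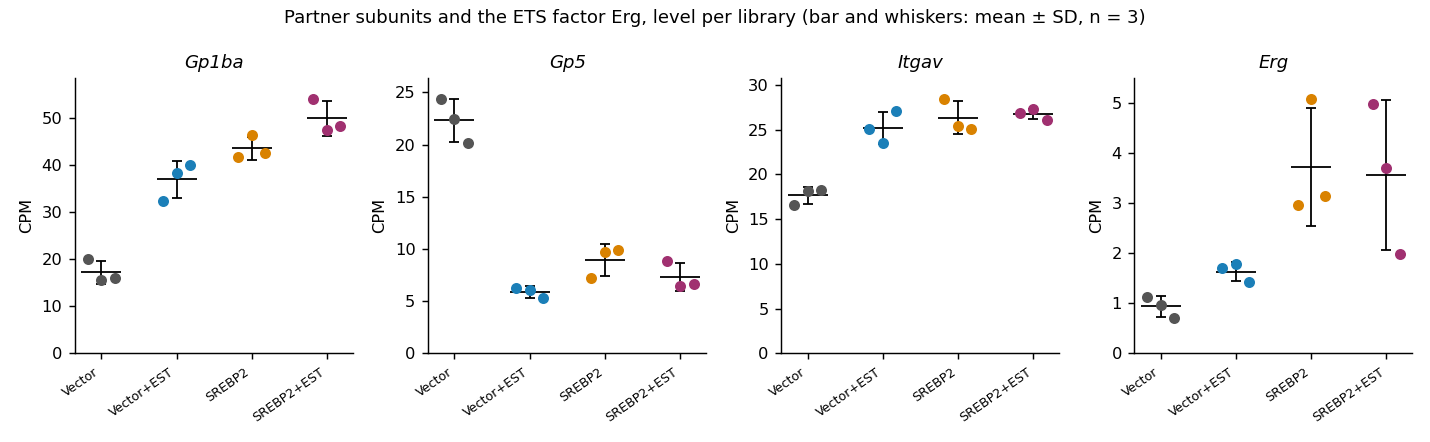
CPM of Gp1ba, Gp5, Itgav and Erg in each of the 12 libraries by group, each panel with its own axis from 0, with the mean and SD of 3 libraries as a bar with whiskers. In Vector, Gp5 is highest and the other 3 genes are lowest, and the SREBP2+EST libraries of Erg spread most.

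The 250 bases before the RefSeq start sites are shown for Itga2b and Pf4, which SREBP2 moved in opposite directions, and for Gp1ba and Gp5, the chains of 1 complex that did so too. Windows for 6 of the 8 genes were matched by symbol in RefSeq (GRCm38.p6). Each is written in the gene's own direction, with capitals for 4 GATA motifs (AGATAA and TGATAA, and the forms that end in G, namely AGATAG and TGATAG) and for the ETS core GGAAG, on either strand (on the opposite strand they read backwards and complemented):
Itga2b (chr11:102469884-102470133, minus strand): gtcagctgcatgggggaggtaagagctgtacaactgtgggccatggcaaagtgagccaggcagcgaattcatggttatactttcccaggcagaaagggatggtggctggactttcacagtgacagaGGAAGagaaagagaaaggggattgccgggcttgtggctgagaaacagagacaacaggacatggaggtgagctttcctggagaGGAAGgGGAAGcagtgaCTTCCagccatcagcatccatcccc
Pf4 (chr5:90772185-90772434, plus strand): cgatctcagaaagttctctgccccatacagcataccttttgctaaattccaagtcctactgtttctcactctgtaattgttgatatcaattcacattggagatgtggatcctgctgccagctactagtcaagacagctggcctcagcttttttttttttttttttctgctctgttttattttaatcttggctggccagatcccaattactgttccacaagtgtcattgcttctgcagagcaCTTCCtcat
Gp1ba (chr11:70638872-70639121, plus strand): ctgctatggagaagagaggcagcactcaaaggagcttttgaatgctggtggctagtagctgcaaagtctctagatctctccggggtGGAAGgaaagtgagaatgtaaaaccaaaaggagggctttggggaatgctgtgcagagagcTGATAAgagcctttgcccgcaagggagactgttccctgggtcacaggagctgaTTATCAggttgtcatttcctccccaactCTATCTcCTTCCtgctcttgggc
Gp5 (chr16:30310782-30311031, minus strand): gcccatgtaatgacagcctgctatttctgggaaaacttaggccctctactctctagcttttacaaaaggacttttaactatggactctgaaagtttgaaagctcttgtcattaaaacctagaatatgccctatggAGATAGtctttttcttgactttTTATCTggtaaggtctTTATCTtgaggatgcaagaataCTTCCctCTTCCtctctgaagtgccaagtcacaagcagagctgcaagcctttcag

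Gp1ba and Gp5, which moved in opposite directions, each hold 3 of the GATA motifs and 2 ETS cores. The Itga2b window holds 4 ETS cores, all within 124 bases of the start, and none of these GATA letters, and the Pf4 window holds 1 ETS core, on the opposite strand 9 to 5 bases before the start. Of all 32851 windows of this length, 26.5% hold at least 1 of the 4 GATA motifs and 64.1% hold GGAAG. These matches describe letters in a short window and are no evidence of binding. The sterol element TCACNCCAC, searched on both strands, is in 1.05% of all windows and in none of the 9 windows of the chosen genes, Gp1ba and Gp5.

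Pf4 was the gene in which EST and SREBP2 differed most in direction. It lies on the plus strand of chr5:90772435-90773383. Vector libraries 1, 4 and 5 held 10.06, 9.43 and 8.91 CPM and Vector+EST libraries 1, 3 and 5 held 5.72, 6.59 and 6.05 CPM, so EST lowered it without overlap. SREBP2 libraries 1, 3 and 5 held 38.8, 51.5 and 52.9 CPM and SREBP2+EST libraries 1, 2 and 5 held 50.4, 41.9 and 41.2 CPM, far above both groups without SREBP2. The log2 fold change was -0.63 ± 0.16 with EST (edgeR adjusted p 0.00185) and 2.33 ± 0.12 with SREBP2 alone (edgeR adjusted p 4.10e-11), a 5.04-fold rise. In EST-treated cells SREBP2 raised Pf4 7.26-fold (log2 fold change 2.86 ± 0.13, edgeR adjusted p 4.54e-11). Ppbp, another platelet chemokine whose gene ends before Pf4 begins (chr5:90768518-90770063), was close to the lower limit of detection. Its estimated counts were 3, 5 and 6 in Vector, 1, 0 and 0 in Vector+EST, 9, 9 and 11 in SREBP2 and 13, 8 and 9 in SREBP2+EST. Ppbp did not pass the filter and was not tested. Cxcl5, on the same chromosome, stayed at or under 0.0904 CPM in every group mean.

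The 3 transcription factors rose in both comparisons. Fli1, on the minus strand of chr9:32422204-32543432, measured 13.8, 14.4 and 13.98 CPM in Vector and 26.6, 26.4 and 24.5 CPM in Vector+EST. With SREBP2 it held 26.4, 30.07 and 30.2 CPM, and 33.2, 27.5 and 26.1 CPM once EST was added. Vector stood below all 9 other libraries, which overlapped one another. Fli1 rose by 0.88 ± 0.09 with EST (edgeR adjusted p 2.16e-07) and by 1.04 ± 0.09 with SREBP2 alone (edgeR adjusted p 2.36e-08), on the log2 scale.

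Runx1, on the minus strand of chr16:92601466-92826074, was the most abundant of the 7 in CPM. Its libraries held 150.1, 139.5 and 141 CPM in Vector, 241, 250.3 and 241 CPM in the Vector+EST group, 213, 195 and 179 CPM in SREBP2, and 196, 239 and 228 CPM in SREBP2+EST. The SREBP2 libraries lie between Vector and Vector+EST without overlapping either. The log2 rise was 0.77 ± 0.07 with EST (edgeR adjusted p 4.33e-08) and 0.45 ± 0.07 with SREBP2 alone (edgeR adjusted p 2.13e-05). Cbfb, which encodes the protein that stabilises RUNX1 on DNA, rose from a range of 78.1 to 82.3 CPM in Vector to 113 to 131 CPM with EST and 111 to 142 CPM with SREBP2.

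Meis1, on the minus strand of chr11:18880428-19019651, held 3.80, 4.38 and 3.89 CPM in Vector, 9.33, 9.62 and 7.69 CPM in the Vector+EST group, 10.3, 10.7 and 10.5 CPM in SREBP2, and 9.59, 10.2 and 9.15 CPM in SREBP2+EST. Every library with EST, SREBP2 or both lies above the Vector libraries. Its log2 rise was 1.14 ± 0.11 with EST (edgeR adjusted p 1.01e-07) and 1.38 ± 0.11 with SREBP2 alone (edgeR adjusted p 7.23e-09). As with Itgb3, all 12 values of Meis1 carry decimals. The annotation places Gm16141 over Meis1, Gm22060 over Fli1 and Gm30281 over Runx1, and whether the counting used strand is not given in the sources used here.

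Comparing SREBP2 with Vector cells after EST asks whether SREBP2 still changed these genes in cells given EST. Only Pf4 and Itgb3 passed, both higher, which is 2 of 7 beside 21.9% of all genes (14.0% higher and 7.94% lower). Of the Vector+EST libraries only library 5 held Col1a1 above 0.0542 CPM, whereas all 3 SREBP2+EST libraries did. The part of this RNA in these values was not tested. Itga2b differed by 0.35 ± 0.16 (edgeR adjusted p 0.134), Gp9 by -0.15 ± 0.35 (edgeR adjusted p 0.805), Fli1 by 0.16 ± 0.08 (edgeR adjusted p 0.184) and Meis1 by 0.12 ± 0.10 (edgeR adjusted p 0.425), all on the log2 scale. Runx1 differed by -0.14 ± 0.07 (edgeR adjusted p 0.151), although its 3 SREBP2+EST libraries lie below all 3 Vector+EST libraries. With Pf4 and Itgb3 that makes 3 of the 7 without overlap, beside 38.1% of all genes. Leaving out single libraries moved these differences to between 0.05 and 0.23 for Fli1 (lowest without SREBP2+EST library 1), between 0.02 and 0.18 for Meis1 (lowest without Vector+EST library 5) and between -0.20 and -0.06 for Runx1 (nearest 0 without SREBP2+EST library 1). Without SREBP2+EST library 5, the lowest for Itga2b, the Itga2b difference passed (edgeR adjusted p 0.0121).

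SREBP2 cells without EST were also set beside Vector cells with EST, to see where the separate treatments left each gene. Of the 7, 3 were higher with SREBP2 and 1 was lower, beside 23.4% of all genes passing (14.4% higher and 8.96% lower). The libraries of these groups did not overlap for 5 of the 7, beside 35.5% of all genes. Of the 5 fibroblast markers 3 were lower in this comparison, where only Vector+EST library 5 held Col1a1 above 0.0542 CPM. Their part in these values was not tested. Pf4 was 7.79-fold higher (log2 2.96 ± 0.13, edgeR adjusted p 2.41e-11) and Itgb3 was higher by 0.79 ± 0.10 on the log2 scale (edgeR adjusted p 2.84e-05). Runx1 was lower by a log2 difference of -0.32 ± 0.07 (edgeR adjusted p 0.00246). Itga2b was higher by 0.49 ± 0.16 (edgeR adjusted p 0.0319), a call that was lost, at edgeR adjusted p of 0.0679 to 0.139, without Vector+EST library 1 or 3 or without SREBP2 library 3 or 5. No difference passed for Gp9 (0.18 ± 0.33), Fli1 (0.16 ± 0.08) or Meis1 (0.24 ± 0.10), with edgeR adjusted p of 0.748, 0.178 and 0.0805.

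EST in SREBP2 cells changed none of the 7 genes at an edgeR adjusted p under 0.05, and 0% of all genes passed. Unadjusted p was under 0.05 for 506 genes, among them only Runx1 of the 7 (log2 fold change 0.18 ± 0.07, edgeR adjusted p 0.919), and DESeq2 called 12 genes. Between these groups only Meis1 of the 7 had libraries without overlap, beside 7.43% of all genes. The differences of the genes other than Runx1 ran from -0.33 ± 0.34 for Gp9 to 0.00 ± 0.08 for Fli1. Fibroblast markers summed to 18.1 to 33.8 CPM in SREBP2+EST and to 4.03 to 5.42 CPM in SREBP2. Col1a1 differed by 7.23 ± 1.72 on the log2 scale without overlap, yet did not pass (edgeR adjusted p 0.514). The part of fibroblast RNA in these values was not tested. With SREBP2 library 1 and SREBP2+EST library 1 both left out, 1567 genes passed, and Pf4 (log2 fold change -0.33, edgeR adjusted p 0.00094) and Runx1 (0.33, edgeR adjusted p 9.97e-05) were among them. Those libraries were left out because they lay near the other group, which by itself widens the difference between the groups, so this larger count is no independent result. SREBP2 library 3, which was kept, also lay nearer to SREBP2+EST library 1 (0.0643) than to any library of its own group (0.0742).

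With both treatments against neither, all 7 passed, 5 higher and 2 lower, beside 72.7% of all genes (38.6% higher and 34.2% lower). None overlapped between the groups, as for 76.4% of all genes. Of the 5 fibroblast markers 4 rose and 1 fell in this comparison, all SREBP2+EST libraries and no Vector library holding Col1a1 above 0.0542 CPM, and their part in these values was not tested. The log2 fold changes were -2.10 for Itga2b, 0.55 for Itgb3, -2.22 for Gp9, 2.23 for Pf4, 1.04 for Fli1, 0.63 for Runx1 and 1.26 for Meis1. The interaction is the EST effect in SREBP2 cells minus that in Vector cells. It passed for 6 of the 7, beside 59.0% of all genes (29.8% higher and 29.2% lower), and was 2.31 ± 0.20 for Itga2b (edgeR adjusted p 8.18e-08), 1.73 ± 0.44 for Gp9 (edgeR adjusted p 0.00316) and 0.53 ± 0.18 for Pf4 (edgeR adjusted p 0.0223). It was -0.88 ± 0.12 for Fli1 (edgeR adjusted p 1.25e-05), -0.59 ± 0.10 for Runx1 (edgeR adjusted p 6.59e-05) and -1.27 ± 0.14 for Meis1 (edgeR adjusted p 1.64e-06). Itgb3 gave 0.14 ± 0.15 (edgeR adjusted p 0.434). Without both libraries numbered 1 the same 6 genes passed, with 2.24 for Itga2b, 1.67 for Gp9, 0.34 for Pf4 (edgeR adjusted p 0.0103), -1.01 for Fli1, -0.40 for Runx1 and -1.24 for Meis1. Fibroblast marker sums were higher in SREBP2+EST than in SREBP2, and their part in the interaction was not tested.

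Wider lists of megakaryocyte genes place the 7 among others of the same lineage. Of 40 genes listed for receptors, surface signaling, granules and cytoskeleton, 38 were in the table and 21 passed the filter. With EST in Vector cells 7 of the 21 rose and 10 fell, beside 35.2% and 35.5% of all genes, and with SREBP2 alone 7 rose and 8 fell, beside 37.7% and 33.8%. Their median log2 fold changes were -0.19 and 0.02, beside 0.01 and 0.03 over all genes. SREBP2 in EST-treated cells raised 10 of the 21 and lowered none, beside 14.0% and 7.94% of all genes, with a median of 0.32 beside 0.00 over all genes. The balance of higher and lower calls in that comparison depends on the scaling. Of all calls 63.7% were higher here, but 42.2% with library totals only. In bulk RNA, fewer cells of a type and less RNA per cell cannot be told apart.

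Of the 8 surface and signaling genes tested, none rose and 5 fell with EST in Vector cells, beside 35.2% of all genes higher and 35.5% lower. With SREBP2 alone 1 rose and 4 fell, beside 37.7% and 33.8%, and with SREBP2 in EST-treated cells 3 rose and none fell, beside 14.0% and 7.94%. P2rx1, an ATP-gated channel of platelets, fell from 15.1 ± 0.786 CPM in Vector to 1.69 ± 0.274 CPM with EST and 4.13 ± 0.349 CPM with SREBP2. Rgs18, a regulator of G protein signaling in platelets, fell from 53.4 ± 2.50 CPM to 8.84 ± 0.953 and 7.02 ± 1.18 CPM. Of 9 tested granule and cytoskeleton genes, 4 rose and 4 fell with EST, and 3 rose and 3 fell with SREBP2 alone, in comparisons where 70.6% and 71.5% of all genes passed. Tubb1, the platelet β-tubulin, chosen here after its values were seen, rose from 0.392 ± 0.0577 CPM in Vector to 2.08 ± 0.228 CPM with EST and 2.41 ± 0.761 CPM with SREBP2. Myl9, a myosin light chain named here after its values were seen, counts among the 4 that rose with EST, but that rise comes from Vector+EST library 5, with 2.23 CPM against at most 0.157 CPM in the 5 other libraries of that comparison. Vwf and Selp, which mark mature megakaryocytes, were at or near 0 in all groups, with means of at most 0.0177 CPM. The 9 mature megakaryocyte or platelet markers together summed to 38.6 to 46.5 CPM in Vector, 41.3 to 48.6 in Vector+EST, 51.5 to 60.9 in SREBP2 and 57.0 to 67.5 CPM in SREBP2+EST, nearly all of it Gp1ba and Gp5, which moved in opposite directions.

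**Figure D5:**
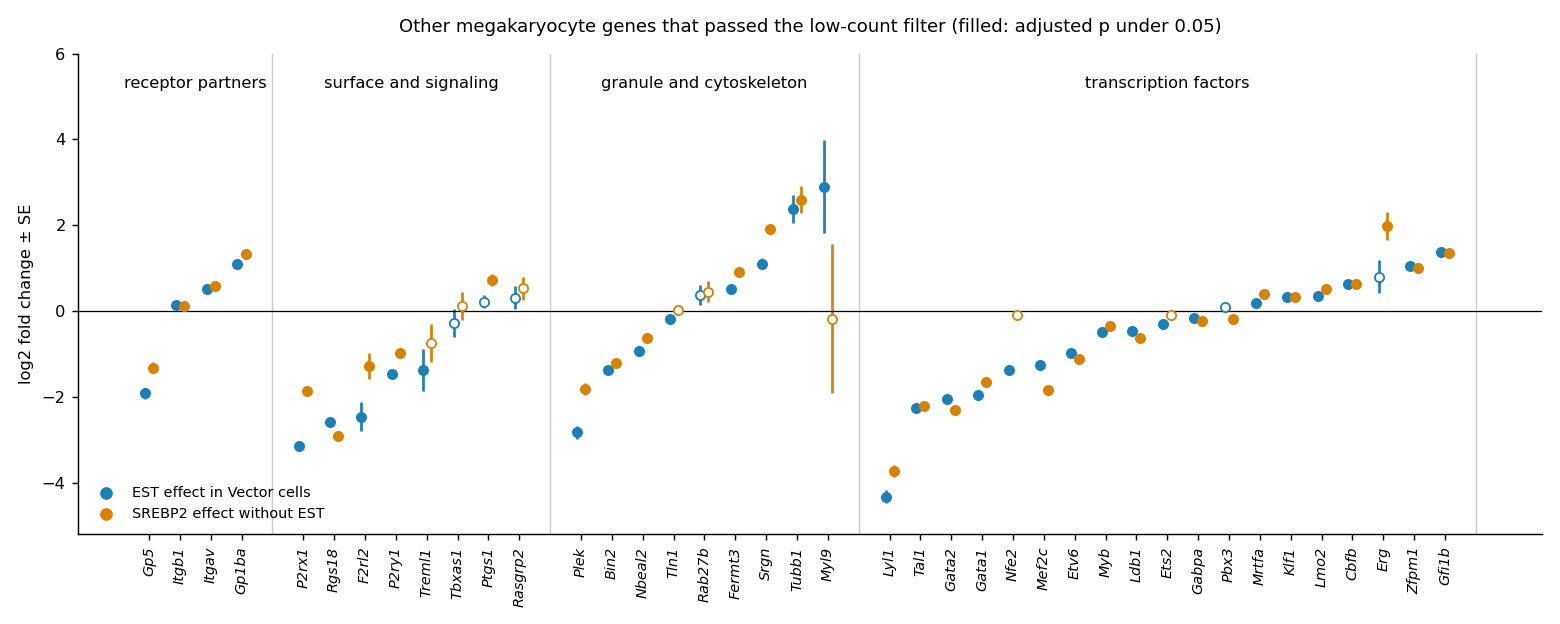
Log2 fold change and SE of each tested gene in the 4 wider lists for EST in Vector cells and SREBP2 without EST, where filled points passed an adjusted p of 0.05, ordered within each list by size. Most surface and signaling genes lie below 0, while receptor partners, granule and cytoskeleton genes and transcription factors lie on both sides.

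Among transcription factors of both lineages, 19 of 27 listed were tested, of which 6 rose and 11 fell with EST in Vector cells and 7 rose and 10 fell with SREBP2 alone, beside 70.6% and 71.5% of all genes passing in either direction. Lyl1, a basic helix-loop-helix factor related to Tal1, fell from 339 ± 9.64 CPM in Vector to 16.8 ± 2.55 CPM with EST and 25.5 ± 7.91 CPM with SREBP2. Gata2, the GATA factor of early progenitors, fell from 644 ± 17.7 CPM to 156 ± 4.55 and 131 ± 2.80 CPM. Gata1 counts, which can include reads of the fusion, fell from 1769 ± 17.1 CPM to 453 ± 28.5 and 557 ± 40.2 CPM. Klf1, the erythroid factor that opposes FLI1, rose by 0.33 with EST (edgeR adjusted p 0.00114) and 0.32 with SREBP2 alone (edgeR adjusted p 0.0014) on the log2 scale, in the same direction as Fli1.

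The ETS relatives of Fli1 did not follow it as a group. Erg, the closest relative, was rare but rose with SREBP2, from 0.938 ± 0.208 CPM in Vector to 3.74 ± 1.18 CPM in SREBP2 (log2 fold change 1.99, edgeR adjusted p 5.29e-05), and measured 1.64 ± 0.181 CPM in Vector+EST (log2 fold change 0.80, edgeR adjusted p 0.0714). That EST difference of Erg passed in 6 of 20 alternatives, among them DESeq2 (adjusted p 0.0498) and the fit of only the libraries compared (edgeR adjusted p 0.00763). Etv6, a repressor of the ETS family, fell from 69.0 ± 3.48 CPM to 35.2 ± 1.02 CPM with EST and 31.8 ± 3.08 CPM with SREBP2. Ets2 fell by 0.31 on the log2 scale with EST (edgeR adjusted p 0.000129) and differed by -0.09 with SREBP2 alone (edgeR adjusted p 0.172). Gpatch8, the gene next to Itga2b on the same strand (chr11:102475911-102556391), rose by 0.67 with EST and 0.53 with SREBP2 on the log2 scale, opposite to its neighbour. Fzd2, farther along the same chromosome (chr11:102604431-102608058), had group means of at most 0.0177 CPM.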

How the data were processed

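The authors deposited raw estimated counts of 17210 genes in 12 libraries, and 66.5% of the values are whole numbers. The submitters' processing notes name HISAT2 2.0.4, Bowtie2 2.2.5, RSEM 1.2.12, DESeq2 1.4.5 and GRCm38.p6. The annotation is not given in the sources used here. A second deposited table holds only the authors' own pairwise comparisons and was not used.

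Groups came from the sample titles. Libraries carry the numbers in the count table's header, which do not follow those of the titles, and every column was mapped (0 left over). Estimated counts were rounded, filtered (filterByExpr, 11177 kept, 6033 left out), scaled by TMM and tested in edgeR 4.0.16 (R 4.3.3, quasi-likelihood F-test, 4 group means, 12 libraries), with Benjamini-Hochberg adjustment over all genes and a threshold of 0.05. SE was obtained from each log2 fold change and its F value. CPM follows TMM scaling. Exon length and strand came from GENCODE M21, and gene positions from RefSeq. The procedure was tested on simulated data. A count of 3 came to 0.153 to 0.163 CPM.

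The members and lists were chosen with earlier results of these data known. Named were all members, receptor partners, relatives, neighbours, Klf1, Gata1, Gata2, Erg, the 3 genes with the largest change in the wider megakaryocyte and transcription factor lists (cell type markers not included) for EST in Vector cells or SREBP2 without EST, and the 2 genes most alike to each member (average log2 CPM of at least 3, Pearson r over 12 libraries). Another gene under this rule is not reported here. Alternatives were DESeq2 1.42.0, other scalings and filters, fewer libraries and a replicate block.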

Additional observations from a re-analysis of the deposited data

Results flagged for a closer look

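The EST effect differed between SREBP2 and Vector cells for 6 of the 7 genes by the interaction term in edgeR. On the log2 scale the difference was 2.31 for Itga2b, 1.73 for Gp9 and 0.53 for Pf4, which fell with EST in Vector cells. It was -0.88 for Fli1, -0.59 for Runx1 and -1.27 for Meis1, which rose with EST in Vector cells. Over all genes tested, 59.0% passed the same test. The part of fibroblast RNA in these differences was not tested. The Pf4 difference was 0.48 without Vector library 1 (edgeR adjusted p 0.0577) and 0.48 without Vector+EST library 1 (edgeR adjusted p 0.0621), close in size but past the threshold in neither. Without both SREBP2 library 1 and SREBP2+EST library 1 the Pf4 difference itself was 0.34 (edgeR adjusted p 0.0103), against 0.53 with them, and the other 5 differences stayed past the threshold.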

How the results depend on the processing

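Of the 49 log2 fold changes of the 7 genes, recomputed 966 times under the alternatives, 943 kept their direction and side of the threshold, 6 lost the threshold, 5 gained it and 12 changed sign, none of those 12 with a call. The other named genes gave 1178 of 1264 in the same way, with 64 lost, 11 gained and 11 of changed sign. The cause of these changes was not tested. At 9 to 18 counts a library, differences of Gp9 among the lower groups could not be resolved.

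Counts of calls moved in several comparisons. For EST in SREBP2 cells all genes called went from 0 to 12 with DESeq2, 22 without the low-count filter and 8 with only the libraries compared. The count was 1567, with 2 of the 7 genes, when SREBP2 library 1 and SREBP2+EST library 1 were left out together. Without single libraries it ran from 0 to 18, with 18 when Vector+EST library 5 was left out, and the 7 genes gave 0 to 0. For SREBP2 with EST, 2448 genes fell to 1208 under the replicate block and reached 3472 at most under the other settings. Without single libraries they ran from 1773 to 3084. For SREBP2 against Vector+EST, 2617 genes became 1885 to 3234 without single libraries and 1802 to 3881 under the other settings. The header numbers gave no sign of pairing (0 of 13 same-number pairs had a correlation of deviations over 0.1, range -0.17 to 0.07). With 3 libraries per group this check cannot settle whether libraries were paired. The block changed no call of the 7 genes. Leaving out single libraries gave 2 to 3 of the 7 genes for SREBP2 with EST, 3 to 4 for SREBP2 against Vector+EST and 5 to 6 for the interaction. Under at least 10 counts in every library Gp9 drops out. With library totals only, 42.2% of the calls for SREBP2 with EST were higher, against 63.7%, and 42.2% against 61.7% for SREBP2 against Vector+EST.

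With both libraries numbered 1 left out, Itgb3 passed for EST in Vector cells (-0.23, adjusted p 0.0224), as did Fli1 for SREBP2 against Vector+EST (0.22, adjusted p 0.00817), and the Itgb1 interaction was 0.0438. Signs changed without a call for SREBP2 with EST in Itgb1 (-0.0087 with library totals, -0.0078 with the block), Cbfb (-0.012 and -0.0095) and Klf1 (0.030 with the block). For EST in SREBP2 cells they changed in Fli1 (0.0031 without the filter, 0.054 with the block), Itgb3 (0.0032 with the block) and Pf4 (0.000603 with the block). Without single libraries the ranges were, for SREBP2 with EST, -0.36 to 0.16 in Gp9, -0.0010 to 0.057 in Itgb1, -0.064 to 0.036 in Klf1 and -0.022 to 0.080 in Cbfb. They were -0.11 to 0.066 in Fli1, -0.31 to 0.036 in Itga2b and -0.14 to 0.011 in Itgb3 for EST in SREBP2 cells, and -0.026 to 0.50 in Gp9 for SREBP2 against Vector+EST.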

Other observations

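The genes whose level ran most like each member over the 12 libraries were named by Pearson r of log2 CPM, as a description. For Pf4 they were Tuba1a (r = 0.998), an α-tubulin, and Ctse (r = 0.998), the aspartic protease cathepsin E. Itgb3 ran closest to 3110040M04Rik (r = 0.981) and Ppp2r3d (r = 0.969). Itga2b ran with Pomt1 (r = 0.990) and Rnf123 (r = 0.989), and Gp9 with Ipo13 (r = 0.983) and Rnf44 (r = 0.982). Fli1 was nearest to Ddc (r = 0.993) and Furin (r = 0.991), Runx1 to Tshz1 (r = 0.987) and Fxr2 (r = 0.985), and Meis1 to Sgms1 and Gramd1c (r = 0.991 each). The 12 points share 4 groups, so genes that separate the same groups score high. Of about 8553 candidates, 1645 passed r = 0.9 with Meis1, 1471 with Gp9, 1456 with Itga2b, 1430 with Fli1 and 957 with Runx1, but 287 with Pf4 and 173 with Itgb3, the genes whose level followed SREBP2.

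Mast cell markers, 6 in the table, summed to 330 to 345 CPM in Vector and 230 to 259 CPM in the other groups, and Kit, the stem cell factor receptor, held most of that sum at 326 ± 8.72 CPM in Vector. The chosen genes were not tested against these markers.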
